A study of Mus musculus with 16 samples.

Results

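The pancreas of lean wild-type (WT) mice was described here from 5 bulk RNA-seq libraries, all the libraries labelled WT among the 16 of the series. These were male C57BL6/J mice, 12 weeks old, of Jackson stock, described in the labels as bred in house and in the study's methods as purchased, kept on standard chow and given control water for 6 weeks. The other 11 libraries came from leptin-deficient Lep ob/ob mice, of which 7 were untreated and 4 received a cholecystokinin receptor antagonist. The antagonist-treated libraries were not used, and no level was compared between WT and Lep ob/ob mice. RNA was taken from pieces of snap-frozen, pulverized whole pancreas and selected by its poly(A) tail, so each value is a sum over all cells of the piece.

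The labels place 3 of the WT mice (numbers 5489, 5492 and 5494) in one processing batch and 2 (numbers 58 and 59) in another. They are called batch A and batch B. The mice of batch A weighed 26.2, 26.5 and 24 g and those of batch B 29.4 and 32.3 g, so batch and body weight cannot be told apart in WT mice. Wherever 5 values are given in a row they stand in the order 5489, 5492, 5494, 58, 59. The libraries held 23652957, 23660452, 29299833, 10805033 and 11190924 counts. At least 1 count was found for 15447, 15794, 15790, 15538 and 16194 genes. When every library was thinned to the 10805033 counts of the smallest, the numbers became 14679, 15037, 14828, 15538 and 16164, so both batch B libraries held more genes at an equal total than any batch A library. Only the total was matched, and at that total the 50 most counted genes left fewer counts for all other genes in batch A.

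A share is a gene's percent of all counts of a library, and CPM gives the same quantity scaled to a fixed total. A normalized count, taken as deposited, is a raw count after division by the size factor of its library, and it compares mice for 1 gene. TPM, the corresponding unit for transcripts, allow for transcript length and compare genes with each other. A log2 fold change comes from the test between batches, which uses its own scaling (TMM). Where a few genes hold most of a library, a gene's share can rise in a mouse only because the share of others falls, so a share and a normalized count may differ in direction. Statements that batches do or do not overlap describe these 5 mice. Of the 13379 genes tested for a difference between batches, 57.1% did not overlap between them, and the tests are given after the levels.

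Most of the adult pancreas consists of acinar cells, which make digestive enzymes and their inactive precursors on a dense rough endoplasmic reticulum, store them in zymogen granules and release them when cholecystokinin or acetylcholine acts on the cell. Duct cells carry the juice to the gut and add bicarbonate. Islets of Langerhans lie scattered between the acini and hold insulin-producing beta cells, glucagon-producing alpha cells and somatostatin-producing delta cells. Vessels, nerves, fibroblasts, stellate cells, resident macrophages and fat cells make up the rest. In bulk tissue, fewer cells of a type and less RNA per cell cannot be told apart.

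The label pancreas was checked against acinar genes. The 6 lists of digestive enzymes (trypsinogens, chymotrypsins and elastases, carboxypeptidases, amylases, lipases, nucleases) together held 65.3% ± 9.40 of all counts (mean ± SD, n = 5). The mice gave 69.8, 71.1, 72.7, 63.3 and 49.8%. Mouse 59 had the lowest share and both mice of batch B lay below all mice of batch A. Of the 37 listed enzyme genes, 35 were in the count table, 31 had counts in every mouse and 3 had none in any mouse. The label male was checked with Xist, which had at most 5.41 normalized counts, and the Y-linked Ddx3y, which had at least 384. On counts per kb of transcript the same lists held 73.6% ± 11.2 of the total.

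Counts were concentrated in very few genes. The 10 most counted genes of each library held 63.2, 62.0, 61.9, 52.03 and 42.8% of its counts, and the top 50 held 85.0, 84.1, 84.5, 74.9 and 64.5%. In batch A, 8 genes were enough to reach 50% of the counts in each mouse, against 10 genes in mouse 58 and 15 in mouse 59. To reach 90%, batch A needed 423, 571 and 502 genes, mouse 58 needed 1755 and mouse 59 needed 3024. The libraries of batch B were thus spread over more genes than those of batch A, without overlap on either measure. The lists of top genes were shared in part: 18 genes were among the 20 most counted in all 5 mice, and 21 were so in at least 1.

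**Figure D1:**
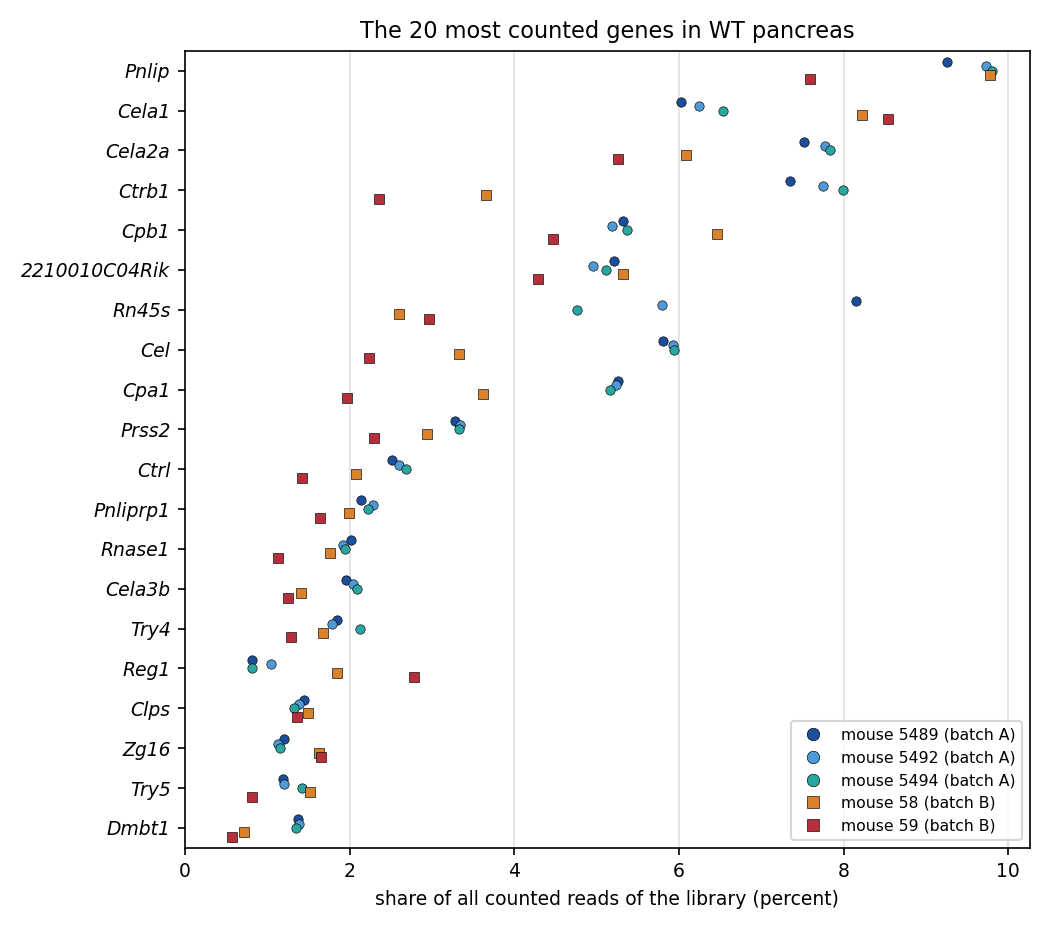
Share of all counts (percent, linear axis) of the 20 genes with the highest mean share, 1 point per mouse, with batch A and batch B marked by symbol. Pnlip had the highest mean at 9.23%, Ctrb1, Cel and Dmbt1 lay lower in both batch B mice than in all batch A mice, and Reg1 lay higher in them.

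Pnlip, pancreatic triglyceride lipase, had the highest mean share, with 9.26, 9.73, 9.80, 9.78 and 7.59% of counts, and was ranked first in every mouse except 59. Cela1, a chymotrypsin-like elastase, came next on average with 6.02, 6.24, 6.54, 8.22 and 8.55%. Its share was higher in both batch B mice than in the other 3, and it was the most counted gene of mouse 59. On normalized counts Cela1 had the opposite order, with 1916690, 1737200, 1914660, 1440660 and 1034100.

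Cela2a, the other major elastase, held 7.52, 7.78, 7.83, 6.09 and 5.26%. Ctrb1, chymotrypsinogen B, held 7.35, 7.75, 7.99, 3.65 and 2.35%, the widest range among the first 5 genes. Cpb1, carboxypeptidase B, held 5.32, 5.19, 5.37, 6.47 and 4.47% with overlapping batches. The sixth gene, 2210010C04Rik, a trypsinogen-like serine protease gene on chromosome 6, held 4.29 to 5.33%.

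The sequences before the starts of the 5 most counted genes are shown because these genes head the list by mean share and because they show how differently such upstream regions can read. Each window is the 250 bases before the RefSeq gene start on the coding strand, in the mouse build GRCm38.p6, and was matched by symbol. Capitals mark 3 motifs searched on both strands. CACCTG, which reads CAGGTG on the opposite strand, is an E-box word of the kind bound by bHLH factors such as Ptf1a. TTTCCC, which reads GGGAAA on the opposite strand, is a word found in the sites of Rbpj and Rbpjl, the partners of Ptf1a. TATAAA, which reads TTTATA on the opposite strand, is the TATA-box word. No match of one motif overlaps that of another in these windows.
Pnlip, chr19:58670115-58670364, plus strand: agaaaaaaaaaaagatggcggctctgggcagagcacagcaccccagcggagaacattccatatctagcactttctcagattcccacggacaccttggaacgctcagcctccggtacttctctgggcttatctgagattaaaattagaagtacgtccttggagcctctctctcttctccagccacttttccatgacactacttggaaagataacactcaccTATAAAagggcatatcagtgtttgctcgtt
Cela1, chr15:100687921-100688170, minus strand: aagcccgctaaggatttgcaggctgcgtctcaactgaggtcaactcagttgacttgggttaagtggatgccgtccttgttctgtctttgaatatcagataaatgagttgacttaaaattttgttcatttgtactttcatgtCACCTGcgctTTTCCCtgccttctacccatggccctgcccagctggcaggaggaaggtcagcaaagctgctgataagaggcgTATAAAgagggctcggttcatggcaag
Cela2a, chr4:141826006-141826255, minus strand: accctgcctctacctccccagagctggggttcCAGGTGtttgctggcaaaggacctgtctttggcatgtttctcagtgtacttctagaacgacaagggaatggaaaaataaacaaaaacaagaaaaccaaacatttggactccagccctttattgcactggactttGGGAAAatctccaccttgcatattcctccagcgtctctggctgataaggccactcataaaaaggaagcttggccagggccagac
Ctrb1, chr8:111691011-111691260, minus strand: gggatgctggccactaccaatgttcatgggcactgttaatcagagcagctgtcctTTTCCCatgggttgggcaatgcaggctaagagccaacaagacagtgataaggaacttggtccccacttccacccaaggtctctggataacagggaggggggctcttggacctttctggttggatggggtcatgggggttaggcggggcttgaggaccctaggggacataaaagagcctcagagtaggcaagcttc
Cpb1, chr3:20275734-20275983, minus strand: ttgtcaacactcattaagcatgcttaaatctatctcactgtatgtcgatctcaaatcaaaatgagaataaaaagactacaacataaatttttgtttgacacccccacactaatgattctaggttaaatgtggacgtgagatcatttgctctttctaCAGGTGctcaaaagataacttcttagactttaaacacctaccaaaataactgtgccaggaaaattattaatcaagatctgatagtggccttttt

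In these windows TATAAA started 30 bases before the start of Pnlip and 27 before that of Cela1. CACCTG started 109 bases before the Cela1 start, and on the other strand its complement began 218 bases before Cela2a and 94 before Cpb1. Of the 29 digestive enzyme genes with a RefSeq window, 16 (55.2%) held CACCTG, 13 (44.8%) held TATAAA and 9 (31.0%) held TTTCCC on either strand. Of all 27025 genes with a window of this length, 19.4, 14.3 and 24.4% did. For the islet lists, 33 of 46 genes had a window, and 27.3, 6.1 and 21.2% held these motifs. None of the 29 enzyme windows held a second E-box word, CATCTG on either strand, which 16.3% of all windows did. A match describes letters in a window and is neither a binding site nor a cause, and paralogous genes share sequence, so these windows are not independent of each other.

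Per unit of transcript length the order of the leading genes changed. Ctrb1 had the highest mean TPM at 91140 ± 41239 (SD, n = 5), followed by Cela2a at 88516 ± 15147, Cela1 at 88081 ± 14089 and Pnlip at 85229 ± 8498. The mean ± SD ranges of these 4 genes overlap. By mouse, Ctrb1 had 117972, 121137, 123264, 56530 and 36800 TPM, so its high mean rests on batch A. Prss2, a trypsinogen, followed at 51209 ± 7684. Clps, colipase, the small cofactor that anchors pancreatic lipase to fat droplets, ranked only seventeenth by share (1.40%) but reached 31564 ± 1729 TPM with a transcript of 611 bases. Its share was the steadiest of the top 20 relative to its mean, at 1.45, 1.39, 1.33, 1.49 and 1.36%. On normalized counts Clps was lower in batch B, with 461169, 386979, 388092, 261794 and 164891 (log2 fold change -0.94, edgeR adjusted p = 0.0419). That call was lost without any 1 mouse of batch A (edgeR adjusted p = 0.111 to 0.194) and with 12 untreated mice in 1 fit (0.166). The ratio of Clps to Pnlip counts stayed between 0.135 and 0.179 in the 5 mice.

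Transcript length is itself uncertain for 2 genes. The reference transcript of Cpb1 is 2718 bases long with 1245 coding bases, and that of 2210010C04Rik is 2142 bases long with 741 coding bases. Counts per coding kb, a length chosen after the values were seen, scaled to the same total as TPM, placed Cela1 first at 81367 ± 8118, then Cela2a at 78721 ± 17569, Ctrb1 at 69433 ± 33909, 2210010C04Rik at 61997 ± 7782 and Pnlip at 61129 ± 8878. The mean ± SD ranges of these 5 genes overlap, apart from that of Cela1 against those of 2210010C04Rik and Pnlip.

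Rn45s, the 45S ribosomal RNA precursor, was the only gene of the top 20 that encodes no protein. It held 8.15, 5.79, 4.77, 2.60 and 2.97% of counts, second in rank in mouse 5489, although the libraries were selected for poly(A) tails. Messages for ribosomal proteins went the other way, at 1.39, 1.51, 1.48, 3.88 and 6.78%. No transcript of the mitochondrial genome was in the table.

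By family, chymotrypsins and elastases held the largest share at 23.9% ± 3.52 (n = 5), then lipases and colipase at 17.9% ± 2.85, trypsinogens at 11.04% ± 1.30, carboxypeptidases at 10.7% ± 1.78 and nucleases at 1.75% ± 0.363. Trypsinogens and carboxypeptidases do not differ beyond their spread. Almost all of the nuclease share came from Rnase1, pancreatic ribonuclease. Dnase1 had counts in mouse 59 only.

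The trypsinogens, inactive precursors that enteropeptidase activates in the gut, were uneven. Shares of 2210010C04Rik, Prss2, Try4 and Try5 averaged 4.98, 3.04, 1.74 and 1.23%. Try10 followed at 0.0324% and Prss3 at 0.0182%, while Prss1, the mouse gene that carries the name of the main human trypsinogen, had normalized counts of only 102, 61.2, 87.9, 94.1 and 58.4. Several of these genes are near-copies: 65.6% of the 50-base stretches of Try4, 53.9% of Try5, 66.1% of Prss3 and 54.9% of Prss1 also occur in another gene, against 7.83% of Prss2 and 0 of 2210010C04Rik. Counts could be split or lost between the first 4, and their levels are uncertain. Try10 shares 40.8% of its stretches, so its level is uncertain too.

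Among chymotrypsin-like genes, Ctrl held 2.26% and Cela3b 1.75%, whereas Ctrc, chymotrypsin C, held only 0.0455% and Cela3a 0.00183%. Cela3a and Cela3b share 34.2 and 33.2% of their stretches, and Cela2a shares 25.6% with Ctrc. In the carboxypeptidase family Cpb1 held 5.36% and Cpa1 4.25%. Among lipases, Cel, the bile salt-dependent carboxyl ester lipase, held 4.65%, Pnliprp1 2.06%, Pnliprp2 0.397% and Pla2g1b, pancreatic phospholipase A2, 0.122%.

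The counts assigned to amylase were few. The 3 amylase genes with counts held 0.0519, 0.0543, 0.0569, 0.166 and 0.243% in sum. Amy2b, a pancreatic amylase, had 12531, 11432, 12854, 26262 and 27732 normalized counts, and Amy1, the salivary and liver amylase, had 3760, 3468, 3534, 2747 and 1538. Batch B was higher for Amy2b and lower for Amy1, without overlap. Amy2a2, Amy2a3 and Amy2a4 had 0 counts in every mouse, and all of their 50-base stretches occur in other amylase genes, so the level of these copies cannot be read from the counts. Of the stretches of Amy2b, 40.2% are also shared, so its level and the summed share may be too low.

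Glandular kallikreins, serine proteases of secretory glands, held 0.470% ± 0.0673, nearly all from Klk1 (0.451%). Of the stretches of Klk1, 28.4% also occur in other genes. Granule proteins that are not enzymes held 3.83% ± 0.0556. Their sum was even by share, at 3.90, 3.87, 3.84, 3.75 and 3.804%, but not on normalized counts, at 1241020, 1076380, 1123770, 657868 and 460315. It joined genes that moved apart: Zg16, a lectin-like zymogen granule protein, held 1.20, 1.12, 1.15, 1.63 and 1.66%, whereas Dmbt1, a large scavenger-receptor glycoprotein, held 1.37, 1.39, 1.35, 0.721 and 0.565%. Gp2, the granule membrane glycoprotein, held 0.432% on average and Sycn, syncollin, 0.374%. Spink1, the trypsin inhibitor that guards the granule, held 0.148%.

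Reg proteins are small secreted lectins of acinar cells whose messages are known to increase in pancreatitis and tissue stress. Reg1 had 260684, 289474, 239544, 324077 and 336415 normalized counts, and batch B was higher without overlap. Reg3d, with 5364, 5786, 5399, 5540 and 5369, was nearly the same in all mice. Reg3b, known as pancreatitis-associated protein, had 1128, 795, 646, 8590 and 26976. Both mice of batch B exceeded every mouse of batch A, and mouse 59 exceeded mouse 58 3.14-fold. Within 1 library, the ratio of Reg3b to Reg3d counts was 0.210, 0.137, 0.120, 1.55 and 5.02, so the order does not rest on scaling. Reg2 varied inside each batch, at 2671, 9749, 4037, 6153 and 15842. Reg3g had 864 in mouse 59 and 83.5 to 164.2 in the others, and Reg4 had no count in any mouse.

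**Figure D2:**
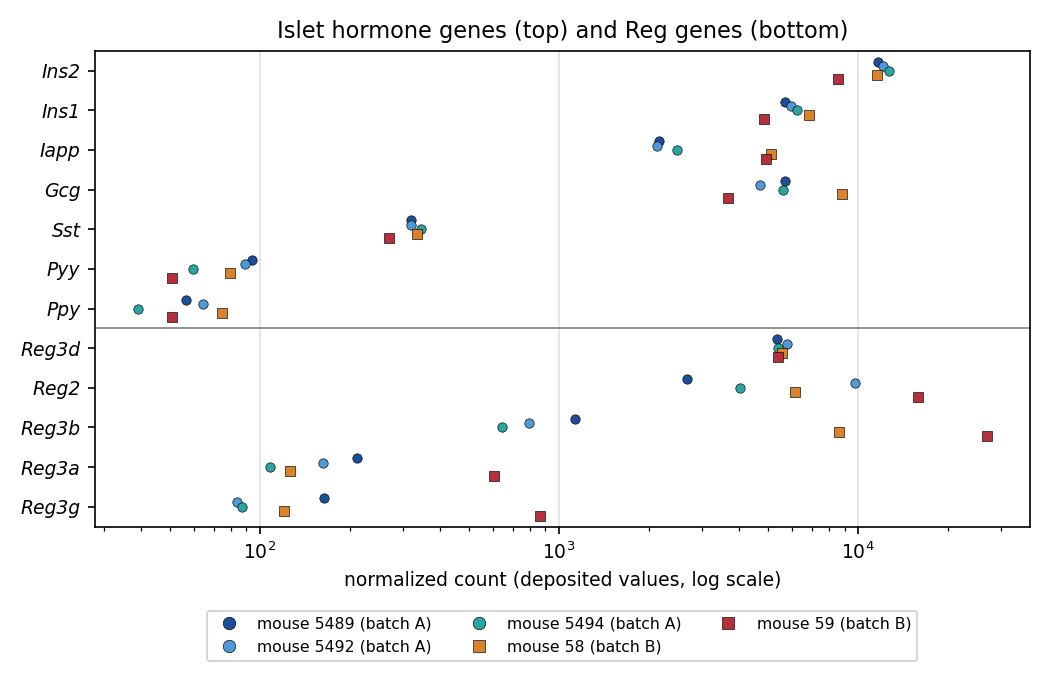
Deposited normalized counts (log axis) of islet hormone genes and Reg genes in each of the 5 WT mice, with batch A and batch B marked. Ins2, Ins1, Sst and Reg3d stay within narrow ranges, whereas Reg3b runs from 646 to 26976 and Iapp separates the batches.

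Among the transcription factors that hold acinar identity, Rbpjl was the most counted with Xbp1 (0.0271 and 0.0282% of counts), followed by Bhlha15 (0.0168%). Ptf1a, the bHLH partner of Rbpjl, had 1234, 859, 956, 579 and 511 normalized counts and was lower in batch B without overlap. Rbpjl had 4178, 3588, 4582, 4713 and 8127, the reverse order. Per length, mean levels were 182 TPM for Xbp1, a driver of the secretory apparatus, 152 for Rbpjl, 66.0 for Bhlha15 (also known as Mist1), 32.4 for Ptf1a, 23.4 for Nr5a2 and 11.4 for Gata4.

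Of the receptors for secretagogues, Cckar, the cholecystokinin A receptor of rodent acinar cells, was at 161 ± 18.0 TPM and made up most of its list. Its normalized counts were 11586, 8661, 8888, 6876 and 4154. Cckbr, the receptor for gastrin and cholecystokinin, had 12.1, 9.41, 7.99, 4.87 and 8.65, and the ratio of Cckbr to Cckar counts did not exceed 0.00208 in any mouse. The muscarinic receptor Chrm3 had 121 to 224 normalized counts and Chrm1 22.7 to 48.2. The secretin receptor Sctr had 8.08 to 37.8. Ligands were not seen: Cck, the gene for cholecystokinin, had 0 counts in all 5 libraries, as had Gast and Sct, the genes for gastrin and secretin. These 3 ligand genes are outside the naming rule and were looked up after the receptors. A count of 0 allows up to 0.127, 0.127, 0.102, 0.278 and 0.268 CPM in the 5 libraries, for counting error only.

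Genes of protein folding in the endoplasmic reticulum held 0.777% ± 0.0976 of counts over 20 genes. Pdia2, the pancreas-type disulfide isomerase, led with 0.261%, then P4hb with 0.113% and Sel1l, an adaptor of degradation at the same membrane, with 0.0898%. Hspa5, the chaperone BiP, had 29510, 11520, 18009, 9369 and 6450 normalized counts. Hyou1, a chaperone of the same compartment, had 8898, 3021, 3903, 2124 and 2020. Mouse 5489 was the highest of batch A for 17 of the 20 genes and mouse 5492 the lowest for 19. Over all 13358 genes ordered in this way, mouse 5489 was highest of batch A for 40.8% and mouse 5492 lowest for 36.6%. Mouse 5492 was also the lowest of batch A for 29 of the 31 digestive enzyme genes tested. In batch B, mouse 58 was above mouse 59 for all 20 folding genes and for 27 of the 31 enzyme genes, beside 6592 of all 13358 genes.

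Islet genes were a small part of the RNA. The 46 genes of 6 islet lists held 0.159, 0.164, 0.170, 0.277 and 0.275% of counts, a mean of 0.209% ± 0.0614. On normalized counts their sum was 50465, 45566, 49743, 48476 and 33281, so the order of the batches by share was not kept and mouse 59 was lowest. Of the 46 genes, 41 had counts in every mouse and 1, Pax4, a factor of endocrine development, had none.

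Ins2 and Ins1, the insulin genes of the mouse, were the most counted beta cell genes together with Ero1lb. Ins2 had 11611, 12111, 12665, 11522 and 8549 normalized counts and Ins1 5705, 5964, 6239, 6866 and 4835. The ratio of Ins2 to Ins1 counts in a library was 2.04, 2.03, 2.03, 1.68 and 1.77, with very close values in batch A. Per length Ins2 reached 1290 ± 371 TPM and Ins1 361 ± 136. Ero1lb, an oxidase for disulfide bonds listed as a beta cell gene, also serves acinar cells and had 17509, 13091, 14178, 8736 and 5965.

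Iapp, islet amyloid polypeptide, which beta cells secrete with insulin, had 2152, 2122, 2478, 5092 and 4903 normalized counts. Batch B was higher without overlap, and the ratio of Iapp to Ins2 was 0.185, 0.175, 0.196, 0.442 and 0.573. Other beta cell genes were low: Slc30a8, the zinc transporter of the insulin granule, had 140 to 180, Slc2a2, the glucose transporter GLUT2, 114 to 178, and Glp1r, the receptor for glucagon-like peptide, 103 to 240.

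Gcg, the glucagon gene, had 5695, 4683, 5591, 8809 and 3674 normalized counts. The 2 mice of batch B were the highest and the lowest, and the ratio to Ins2 was 0.490, 0.387, 0.441, 0.765 and 0.430. Sst, somatostatin, had 319, 320, 345, 336 and 270, and its ratio to Ins2 stayed between 0.0264 and 0.0316. Ppy, pancreatic polypeptide, had 38.97 to 74.6. Ghrl, ghrelin, had counts in 2 mice of batch A only and at most 3.53.

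Secretory granule proteins of endocrine cells store and process the hormones. Of 10 such genes, 6 were called lower in batch B and 1 higher, beside 15.6% of all genes tested in each direction. Chga, Cpe and Pcsk2 lost the call without mouse 59. Chga, chromogranin A, had 1513, 1581, 1678, 1151 and 713, with batch B lower. Cpe and Pcsk2, which process prohormones, had 507 to 1245 and 358 to 723. Of the islet transcription factors, Pdx1 had 59.5 to 90.8, Nkx6-1 32.4 to 74.9 and Mafa 17.3 to 45.8. Neurog3, a factor of endocrine progenitors, had 0 to 4.71.

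The 12 duct genes held 0.0224, 0.0261, 0.0247, 0.0303 and 0.0478% of counts, and their summed normalized counts were 7142, 7265, 7246, 5308 and 5788. Muc1 and Spp1 gave most of these counts. Spp1, osteopontin, had 1681 to 2565 normalized counts. Muc1, a mucin that acinar cells also express, had 3476, 3457, 3300, 1473 and 1083 and separated the batches. The narrower duct markers were low: Krt19 had 287, 352, 398, 294 and 260, Sox9 had 292 to 372, Krt7 71.3 to 109 and Cftr, the chloride channel, 30.0 to 80.0.

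**Figure D3:**
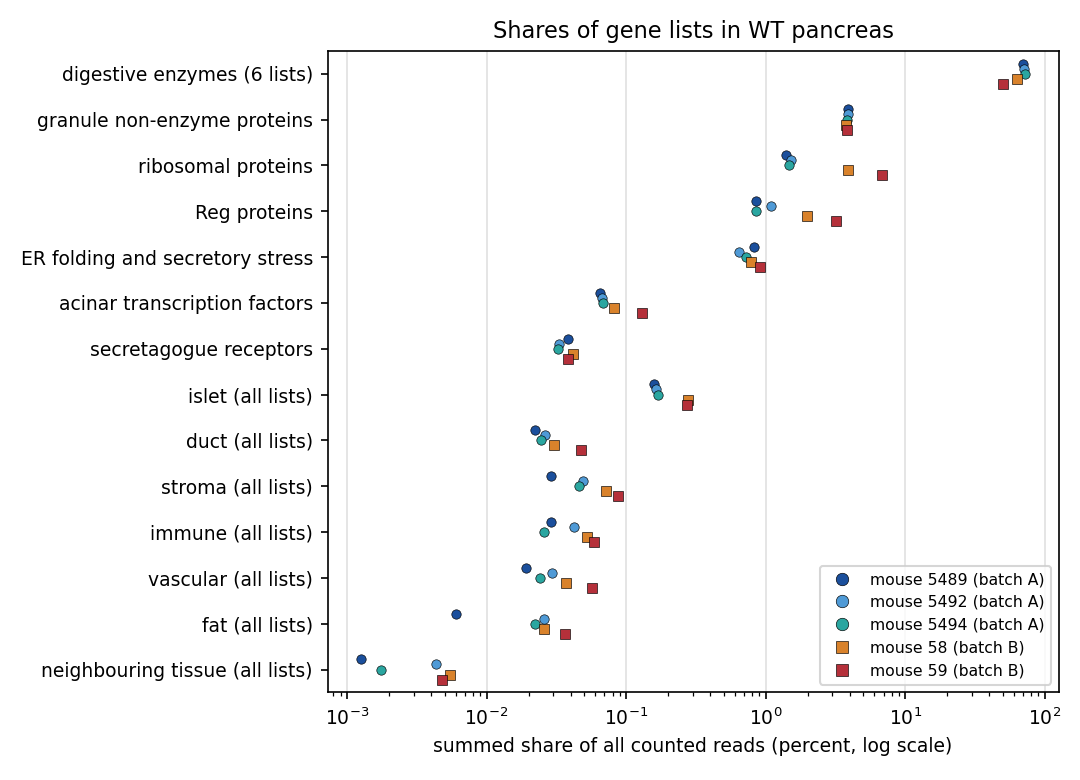
Share of all counts (percent, log axis) held by each compartment's gene lists, 1 point per mouse. Digestive enzymes hold 49.8 to 72.7%, islet lists 0.159 to 0.277%, and the fat list is lowest in mouse 5489 at 0.0060%.

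Fat genes differed between mice of batch A. The 12 white adipocyte genes held 0.0060, 0.0258, 0.0223, 0.0257 and 0.0363% of counts. Adipoq, adiponectin, had 106, 404, 380, 178 and 200 normalized counts, and Plin1, which coats lipid droplets, had 70.0, 288, 260, 66.5 and 71.4. Mouse 5489 was the lowest of batch A for all 12 genes, and mouse 5492 the highest for 10, beside 35.3 and 28.8% of all genes. Lep, the leptin gene, had 17.5, 64.7, 42.0, 22.7 and 49.7. Brown fat genes were near 0: Ucp1 had 1 count in 1 of the 5 mice.

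Macrophage genes held 0.0183% ± 0.00973 over the 5 mice. The MHC class II and dendritic cell list held more than they did in mice 5489 and 5492, and less in the other 3. Lyz2, lysozyme, had 1232, 1645, 1363, 2387 and 1985, higher in batch B, while C1qa had 260 to 415, Csf1r 287 to 504 and Adgre1 91.8 to 139. Cd74, the MHC class II chaperone, had 1331, 2164, 1012, 971 and 747. T cell genes were close to the detection limit, with Cd3e at 17.5, 15.3, 7.99, 3.24 and 2.16. Ms4a1, the B cell gene for CD20, had 41.7, 149, 80.9, 53.5 and 31.4, and mouse 5492 was the highest of batch A for all 5 B cell genes tested. Jchain, the only one of 8 plasma cell genes in the table, had 64.6, 686, 331, 21.1 and 181. The neutrophil genes S100a8 and S100a9 were highest in mouse 58, with 188.1 and 341 against 26.0 and 31.4 in mouse 59 and at most 6.73 in batch A. Mpo, a neutrophil precursor gene, had no count.

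Of 12 blood endothelial genes, 3 (25.0%) were called lower in batch B, beside 15.6% of all genes tested, and 0 higher. Pecam1 had 744, 815, 776, 754 and 733, Flt1, a receptor for vascular endothelial growth factor, 412 to 551, and Kdr, its sister receptor, 473 to 719. Vwf, von Willebrand factor, had 377, 438, 457, 193 and 147 and was lower in batch B (edgeR adjusted p = 0.000438). Smooth muscle genes moved more: Acta2 had 179, 498, 282, 237 and 239, and Des, desmin, 51.2, 308.3, 121, 128 and 146. For all 10 genes of the pericyte and smooth muscle list mouse 5489 was the lowest of batch A. Alas2, the heme synthesis enzyme of red cell precursors, had 303, 175, 140.9, 824 and 986. The globin genes had 0 counts in every mouse, and 58.3 to 86.9% of their stretches are shared with a sister gene. Whether this sharing accounts for the 0 counts was not tested, so no level is given for them.

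Fibroblast and stellate cell genes held 0.0251, 0.0439, 0.0409, 0.0620 and 0.0764%. Col3a1 had 2575, 4163, 4200, 2964 and 2438 normalized counts and Dcn, decorin, 2474, 3678, 3594, 4938 and 3671. Col1a1 had 777, 1322, 1294, 524 and 491. Of 5 mesothelial genes, 3 were called higher in batch B, beside 15.6% of all genes tested. Upk3b, a surface protein of that layer, had 291, 354, 327, 564 and 450, a difference that passed edgeR's test (adjusted p = 0.0108) but not without mouse 58 (0.0724) or with 12 untreated mice in 1 fit (0.473). The Schwann cell and neuron list summed to 350 to 755 normalized counts, most of it from Mbp, myelin basic protein (490, 632, 698, 323 and 274), while Sox10, a Schwann cell factor, had at most 5.88.

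Tissue from neighbouring organs was little represented. The 19 genes of intestine, stomach, liver and skeletal muscle held 0.00126, 0.00432, 0.00176, 0.00548 and 0.00479% of counts. Fabp2, Alpi, Sis, Cdx1 and Cdx2 of the intestine had no count, nor had Gkn1 and Gkn2 of the stomach. Alb, albumin, had 191, 639, 28.98, 37.3 and 31.4 and was highest in mouse 5492. Cyp2e1, listed with the liver and also made in fat, had 114, 404, 431, 892 and 530.

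Several groups set 1 mouse apart from the rest of its batch. Metallothioneins, which bind zinc and respond to metals and glucocorticoids, were among them: Mt1 had 1150, 8288, 4935, 1234 and 1402 normalized counts, and Mt2 had 267, 5619, 3630, 405 and 586. Mouse 5489 was the lowest of batch A for both, and the highest of batch A exceeded it 7.21-fold for Mt1 and 21.1-fold for Mt2. Interferon-responsive genes went the other way: Rsad2, viperin, had 494, 71.8, 83.9, 319 and 242, and Isg15 had 71.3, 11.8, 12.0, 32.4 and 18.4. All 11 genes of that list were highest in mouse 5489 within batch A.

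**Figure D4:**
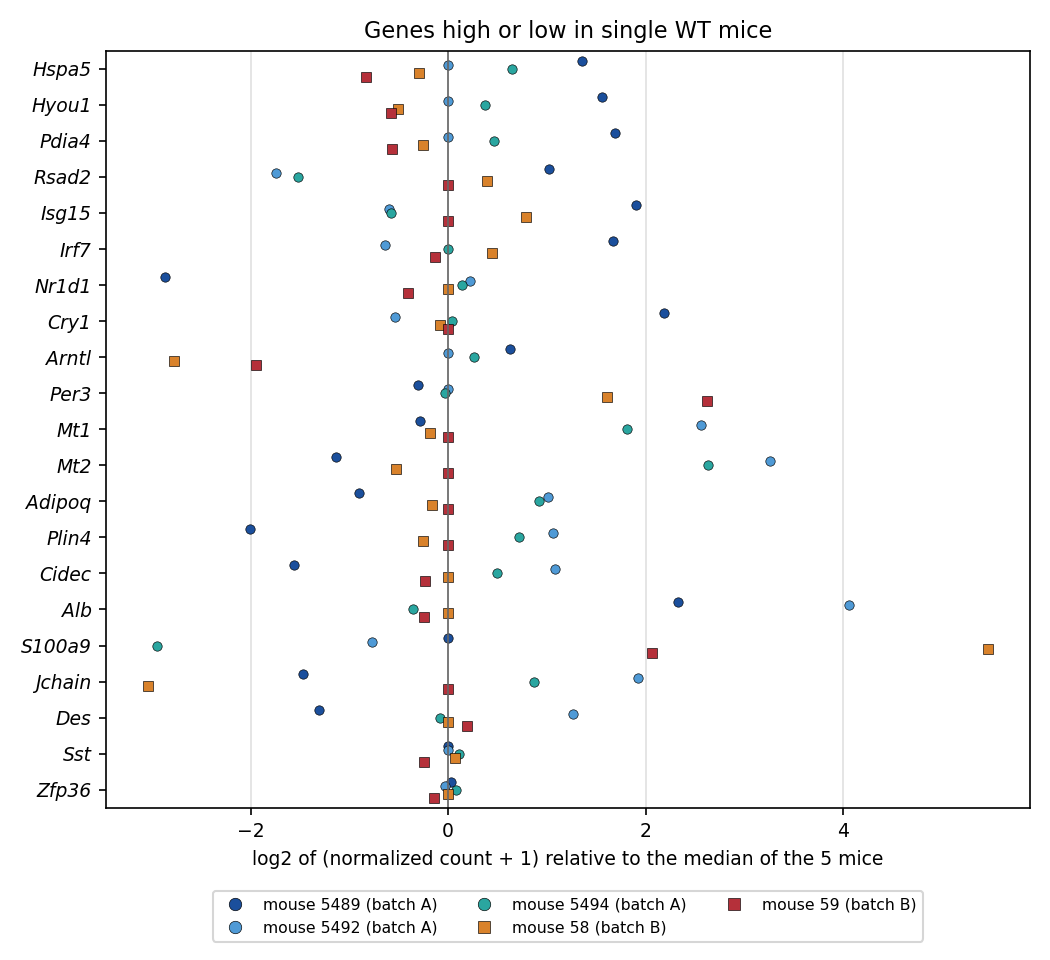
Log2 of (normalized count + 1) of each gene in each of the 5 WT mice, relative to the median of the 5, for genes picked after their values were seen because 1 or 2 mice stood apart, with Sst and Zfp36 as even genes. Mouse 5489 is high for Hspa5, Hyou1, Rsad2 and Cry1 and low for Mt2, Adipoq, Des and Nr1d1.

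In the clock list, mouse 5489 was the highest of batch A for 7 of 16 genes and the lowest for 7, near its shares over all genes. It stood apart for 2 of them. Nr1d1, the repressor REV-ERB alpha, had 59.2, 513, 484, 439 and 331.96, and Cry1, which peaks at another time of day, had 363, 54.1, 80.9, 74.6 and 78.9. Between batches, Arntl (BMAL1) had 404, 261, 313, 37.3 and 67.0, whereas Per3 had 44.4, 55.3, 54.0, 170 and 345. The time of day at which tissue was taken was not given in the sources used here, and its part in these values was not tested. Immediate early genes, which rise when tissue is handled, were low to moderate: Fos had 8.65 to 31.0 and Jun 182 to 393. Proliferation genes were low, with Mki67 at 63.2 to 131.

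Among the well-counted genes, mice of 1 batch were more alike than mice of different batches. For the 1280 genes with a mean log2 CPM of at least 5, the median SD about the batch mean was 0.186 on the log2 scale, with 3 residual degrees of freedom. It was 0.108 without mouse 59 and 0.109 without mouse 58, which leave the mice of batch A alone to give it. Median SD was 0.423 for genes under a log2 CPM of 1 and 0.175 between 3 and 5. It did not fall further in the highest class, where it was 0.218 above 7, the class of the major digestive enzymes. The biological coefficient of variation common to all genes was 0.162. Mice 5492 and 5494 were the closest pair, with 0.469% of the 1280 genes more than 2-fold apart. The other pairs within a batch had 1.25 to 1.88% and the pairs across batches 10.2 to 33.8%. By the median absolute log2 difference, mice 58 and 59 were less alike, at 0.308 against 0.088 to 0.179 between mice of batch A. As a check for a library deposited more than once, the chi-square value per gene was at least 8.57 in every pair of libraries, so all 5 were counted as separate samples.

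The most variable of these 1280 genes within batches were Mt2 (SD 1.96), Mt1 (1.21), Syvn1 (1.04), Cfd (0.980), Reg2 (0.964), Car3 (0.951), Scd1 (0.864), Dnajb9 (0.808), Reg3b (0.751) and Trf (0.718). Syvn1, the ubiquitin ligase of endoplasmic reticulum degradation, had 4493, 1000, 988, 556 and 783 normalized counts, with mouse 5489 far above the rest. Dnajb9, a co-chaperone, was also highest in mouse 5489, at 1924 against 704 and 522. Cfd, Car3 and Scd1 are strongly expressed in fat and were lowest in mouse 5489 within batch A. The steadiest genes were 2900097C17Rik (SD 0.0110), Dgkd (0.0130), Actn4 (0.0199), Ndst1 (0.0218) and Rps4x (0.0245). Actn4, an actin crosslinker, had 1327, 1322 and 1304 in batch A and 808 and 827 in batch B, so a gene steady within batches could still separate them.

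The batches were compared gene by gene with edgeR's quasi-likelihood test on the raw counts, with Benjamini-Hochberg adjustment. Of 13379 genes tested, 4168 (31.2%) passed an adjusted p of 0.05, with 2083 (15.6%) higher in batch B and 2085 (15.6%) lower. Of the called genes, 1778 differed at least 2-fold, 1100 higher and 678 lower. The median log2 fold change over all genes was 0.01. The p-values set the difference between batches against the spread between mice within a batch. Batch, body weight and anything else that differed between both sets of animals cannot be told apart. Leaving out mouse 59 lowered the number of called genes to 1629, while leaving out any other mouse gave 3101 to 4316.

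Against this background the enzyme genes were unevenly placed. Of 31 digestive enzyme genes tested, 15 were lower in batch B and 2 higher, with a median log2 fold change of -1.03. Ctrb1 fell by 2.29 ± 0.45 (SE) on the log2 scale (edgeR adjusted p = 0.00251), and Cel by 2.02 (adjusted p = 0.00385). The values for Pnlip (-1.10, adjusted p = 0.0620) and Cela1 (-0.57, adjusted p = 0.257) did not pass. Amy2b was 1.15 higher (adjusted p = 0.00120). Of the 20 genes for protein folding, 14 were lower and 1 higher, with a median of -1.02. Here Hspa5 fell by 1.30 (adjusted p = 0.0117), while Ddit3, a stress-induced transcription factor, was 1.23 higher (adjusted p = 0.00579). Of 78 ribosomal protein genes, 48 were higher and 2 lower, with a median of 0.77. Of the Reg genes, Reg3b was 4.39 higher (adjusted p = 0.000100), while Reg1 (0.34, adjusted p = 0.381) and Reg2 (1.02, adjusted p = 0.109) did not pass. Ptf1a fell by 0.89 (adjusted p = 0.00349) and Cckar by 0.80 (adjusted p = 0.0243), and Rbpjl was 0.66 higher (adjusted p = 0.0458).

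Single mice decided part of these calls. The number of enzyme genes called lower was 7 without mouse 5489, 7 without mouse 5494 and 11 without mouse 5492. Over all genes, 2127, 1503 and 1622 were called lower in these fits. More enzyme genes were called lower without mouse 58 or 59, fits that leave 1 mouse in batch B. Their median stayed between -1.52 and -0.63 whichever mouse was left out. Of the 20 folding genes, 11 to 14 were called lower without 1 mouse of batch A, beside 1503 to 2127 of all genes. Without mouse 59 most of the folding calls were lost, as were most calls over all genes. The folding median was then -0.80, against -1.02 with all mice. Ribosomal protein genes had 39 to 47 called higher without 1 mouse of batch A, beside 1598 to 2189 of all genes. Their median was 0.59 to 0.89, whichever mouse was left out. Without mouse 59 the edgeR adjusted p was 0.156 for Hspa5, 0.0641 for Ddit3, 0.0527 for Ptf1a, 0.130 for Cckar and 0.386 for Rbpjl. With 12 untreated mice in 1 fit it was 0.101 for Ptf1a, 0.193 for Cckar and 0.30 for Rbpjl, and DESeq2 gave 0.0551 for Hspa5. Cckar also missed the threshold without mouse 5489 (edgeR adjusted p = 0.0603) or 5494 (0.0524), and Rbpjl missed it without any 1 of 4 mice, 58 being the exception. Reg3b, Ctrb1, Cel and Amy2b passed whichever mouse was left out.

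Islet lists had 4 genes higher and 11 lower of 39 tested, with a median log2 fold change of -0.20. Iapp was 1.16 higher in batch B (edgeR adjusted p = 0.000519, and 0.0891 with 12 untreated mice in 1 fit), whereas Ins2 (-0.26, adjusted p = 0.354), Ins1 (-0.02, adjusted p = 0.958), Gcg (0.24, adjusted p = 0.554) and Sst (-0.11, adjusted p = 0.654) did not pass. Without mouse 59 fewer islet genes were called, as over all genes, and their median was -0.05. Without mouse 5494, 3 islet genes were higher and 6 lower, beside 1598 and 1503 of all genes. Duct lists had 2 higher and 2 lower of 12, fat lists 1 and 2 of 13, immune lists 5 and 8 of 46, vascular lists 4 and 3 of 28 and stroma lists 5 and 3 of 16. The share called was 38.5% for islet, 33.3% for duct, 23.1% for fat, 28.3% for immune, 25.0% for vascular genes, beside 31.2% over all genes. Stroma had the highest share of these lists, with 8 genes called of 16. These small counts moved with single mice. Without mouse 59, which leaves 1 mouse in batch B, fewer genes of each list were called, as over all genes. The median log2 fold changes were then 0.16 for duct, -0.65 for fat, -0.34 for immune, -0.35 for vascular and 0.42 for stroma genes. Without mouse 5489, 10 of 13 fat genes and 10 of 28 vascular genes were called lower. Over all genes 2127 were lower in that fit, close to the 2085 with all mice. Of 16 clock genes, 8 were higher and 2 lower, with Arntl lower by 2.58 (adjusted p = 0.000108) and Per3 higher by 2.35 (adjusted p = 0.000160). Without mouse 59 fewer clock genes were called higher, as over all genes, and their median was 0.53 against 0.56 with all mice.

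By the naming rule, the largest rises in batch B were those of S100a9, Reg3b (log2 fold change 4.39 ± 0.40), A330023F24Rik (3.07), Snhg6 (2.91), 1700110K17Rik (2.67), Hnrnpa1 (2.41), Rps24 (2.35), Per3 (2.35), Wfdc17 (2.33) and Rmdn1 (2.32). S100a9 had 5, 3 and 0 counts in batch A against 210 and 29 in batch B. It passed the level of the rule only through batch B, and its fitted value of 5.80 became 3.27 without mouse 58. Hnrnpa1 (mean log2 CPM 0.35 in batch A and 2.66 in batch B) and Wfdc17 (0.74 and 2.97) also passed that level only through batch B. Rps24, a ribosomal protein gene, had 8833, 8290, 8432, 34166 and 51925 normalized counts. The largest falls were those of Lars2 (-3.59 ± 0.31), Mir6236 (-2.59), Arntl (-2.58), Fasn (-2.55), Smim24 (-2.43), Itih4 (-2.36), Lamb3 (-2.34), Ctrb1 (-2.29), Cd79a (-2.26) and Rn45s (-2.18). Normalized counts under the symbol of Lars2, a mitochondrial leucyl-tRNA synthetase, were 90179, 75993, 68675, 8062 and 4819. Whether these reads came from the message of that enzyme was not tested. Fasn, fatty acid synthase, had 1424, 3370, 4113, 558 and 453. Cd79a, at a mean log2 CPM of 1.91 in batch A and -0.13 in batch B, passed the level of the rule only through batch A. Adjusted p in edgeR's test was at most 0.00251 for these 20 genes. They were picked for the size of their difference, so these p-values are no separate evidence for them. Without mouse 59, Cd79a missed the threshold (adjusted p = 0.0891), as it did with 12 untreated mice in 1 fit (0.132).

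The difference between batches moved with base composition. Genes were split into 5 classes of equal size by GC content of the transcript. The median log2 fold change was 0.39 in the class of lowest GC content (31.0 to 44.5%), then 0.14, -0.01 and -0.18, and -0.37 in the class of highest GC content (55.9 to 77.4%). In the lowest class 30.4% of genes were called higher in batch B and 3.31% lower, and in the highest class 5.23% were called higher and 30.1% lower. Split in the same way by transcript length, the medians were 0.22 for the shortest class and -0.10 for the longest. The digestive enzyme lists have a median GC content of 52.9%, which falls in the class from 52.2 to 55.9%, where the median was -0.18. The part of GC content in any single gene's difference was not tested.

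**Figure D5:**
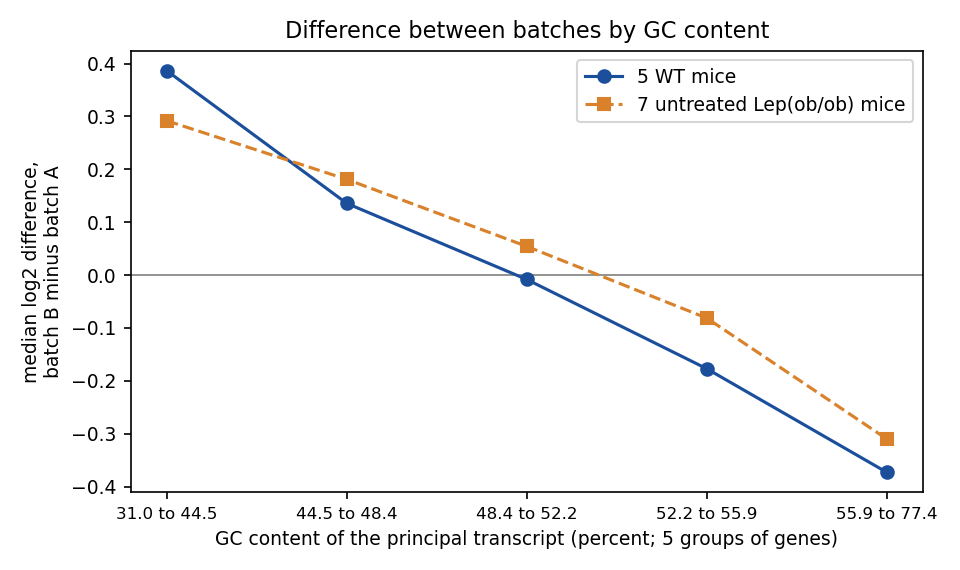
Median log2 fold change, batch B minus batch A, in 5 classes of genes by GC content of the transcript, for WT mice and for untreated Lep ob/ob mice. Both lines fall with GC content, from 0.39 to -0.37 in WT and from 0.29 to -0.31 in Lep ob/ob.

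The same pair of batches also held untreated Lep ob/ob mice, 4 in batch A and 3 in batch B, and no WT mouse entered that fit. There 1137 of 13156 genes (8.64%) passed edgeR's test, 2.57% higher in batch B and 6.07% lower. Of the 4047 genes called in WT and tested in Lep ob/ob, 3613 (89.3%) had the same direction, against 64.1% of the genes not called in WT. Medians over the GC classes, from low to high, were 0.29, 0.18, 0.05, -0.08 and -0.31. Lars2 differed by -3.27 in Lep ob/ob and Mir6236 by -2.32, both past the threshold (adjusted p = 0.00816 and 0.0137). For Reg3b the value in Lep ob/ob was 1.06 (adjusted p = 0.425), for Iapp -0.92 (adjusted p = 0.214) and for Fasn 1.01 (adjusted p = 0.318). A test of the difference between the batch effects of both genotypes called 0 of 14221 genes in edgeR after adjustment and 1687 at an unadjusted p under 0.05.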

How the data were processed

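Poly(A)-selected RNA of whole pancreas was sequenced by the authors in 1 library per mouse. Per the submitters' processing notes, reads were trimmed with Trim Galore 0.6.7 and cutadapt 3.5 and aligned to mm10 with STAR 2.7.9, and DESeq2 was used. The counter, its annotation and its strand setting are not given in the sources used here, so overlapping genes on opposite strands may share counts. The authors deposited raw read counts per gene symbol. For 17548 genes the authors also deposited normalized counts, a signal obtained by dividing each count by the size factor of its mouse. Every per-sample column was matched to a mouse by its label.

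Shares, ranks and tests were computed from the raw counts and levels between mice from the normalized counts. Of the 24411 symbols, 23994 matched a GENCODE M21 gene (91.8 to 97.3% of counts), which gave transcript length and GC content for TPM. Promoter windows were taken from RefSeq by symbol. Batches were compared in edgeR 4.0.16 (limma 3.58.1, R 4.3.3) with TMM scaling, the default expression filter and the quasi-likelihood test, adjusted over all genes tested. Log2 CPM used a prior count of 2, and summaries used Python 3.11.15. Alternatives were DESeq2 1.42.0, other scalings and filters, 12 untreated mice in 1 fit, and leaving out each mouse. In simulated data for the comparison of batches in WT (12858 genes), edgeR recovered 54.7% of 100 genes changed by 1 on the log2 scale and 93.6% of 100 changed by 2, with 7 false calls. These counts were drawn from the fitted model, with few changed genes and no trend with GC content. Their false calls therefore give no error rate for the 4168 genes called in the mice.

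The genes named are the 20 with the highest mean share, those of the fixed lists, the 10 most and 10 least variable within batches (average log2 CPM from 5 upwards), and the 10 largest rises and falls between batches without overlap (average log2 CPM from 1 upwards). Genes outside this rule are marked as such where they appear. Some listed genes are not reported here. The group of mice, the lists and the tests were chosen with earlier results of these data known. Limits from counts of 0, taken as 3 counts, cover counting error only.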

Additional observations from a re-analysis of the deposited data

Results flagged for a closer look

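In 9 of 200 values tested (4.5%), 1 of the 5 mice lay so far from the others that its gap to the nearest, divided by the whole range, passed the critical value of 0.71. Gaps were taken on the log2 scale, with 0.5 added to normalized counts, so they differ from those of the values printed here. On values that were not logged, a scale tried after seeing the data, 15 passed, among them 7 of these 9, without Nr1d1 and the neuroendocrine granule sum. The critical value flags about 1 in 20 groups of 5 independent values from 1 normal distribution. These mice form separate batches, the values tested are related, and some genes, such as Syvn1, were named for their spread. The number flagged can therefore not be set against the number that chance would give. Mouse 59 accounted for 5 of these values, mouse 5489 for 3 and mouse 5494 for 1.

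Mouse 5489 was highest for the clock gene Cry1, at 363 normalized counts where the other mice had 54.1 to 80.9 (gap 0.789), and lowest for the clock gene Nr1d1, with 59.2 against 331.96 to 513 (gap 0.798). It was also highest for Syvn1, with 4493 against 556 to 1000 (gap 0.719).

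Mouse 59 was lowest for Ins2, with 8549 normalized counts against 11522 to 12665 (gap 0.759), and for the summed neuroendocrine granule genes, with 3023 against 4734 to 5681 (gap 0.711). The same mouse was highest for Reg3g, with 864 against 83.5 to 164.2 (gap 0.711), and for Spp1, with 2565 against 1681 to 1852 (gap 0.771). Dnase1 was seen in mouse 59 only, at 2.16 normalized counts (gap 1.0), and Ucp1 in mouse 5494 only, at 0.999 (gap 1.0), so both rest on very few counts.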

How the results depend on the processing

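The number of genes that differed between batches in WT was 4168. It was 2627 with 12 untreated mice in 1 fit, 1778 at a log2 fold change of at least 1 in size, and 1629 (without mouse 59) to 4316 (without mouse 5489) when 1 mouse was left out. DESeq2 gave 3444, and the other scalings and filters 3975 to 4696. The percent of called genes with the same direction in untreated Lep ob/ob mice was 89.3. It was 90.5 with DESeq2, 87.3 without a filter, 95.3 with 12 mice in 1 fit, 90.6 at a log2 fold change of at least 1, and 86.4 to 94.3 with 1 mouse left out. These call sets were tried after seeing the data, as were the list counts without each mouse and counts per coding kb. As a percent of counts outside the top 50 genes, acinar lists held 3.63, islet 0.998, duct 0.144, fat 0.109, immune 0.198, vascular 0.153, stroma 0.264 and neighbouring tissue 0.0162, against 72.1, 0.209, 0.0303, 0.0233, 0.0417, 0.0333, 0.0569 and 0.00352 of all counts. The share of the top 50 and that of the digestive enzymes moved by less than the SD over all WT mice under every alternative run. That SD includes the gap between batches, and leaving out 1 mouse can move a mean only little, so this limit was easily met. The top 50 held 84.5% in batch A alone and 69.7% in batch B alone. For the digestive enzymes these values were 71.2 and 56.5%. The median SD within batches was 0.186, and 0.108 to 0.215 with 1 mouse left out. Of 82 named genes called, 35 kept the call in every setting, 136 of 896 gene and setting pairs lost it and 0 changed sign.

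No paired analysis was possible because no mouse number is shared between groups. With 2 mice, batch B gives its own spread 1 residual degree of freedom. Without mouse 58 or 59 the lone mouse of batch B is assumed to vary like batch A. The causes of these changes were not tested.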
